A study of Homo sapiens with 20 samples.

Results

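The cytochrome P450 genes *CYP3A4*, *CYP3A5*, *CYP3A7*, *CYP2C8*, *CYP2C18* and *CYP2C19* were followed in human islet-like organoids (hILOs) and pancreatic progenitors (PPs). They are 6 of the 60624 genes listed for hILOs, found by matching Ensembl gene identifiers to symbols, and all 6 were found at both stages. The genes were selected on the difference between WT and A5-KO cells in these same libraries, so their differences between the genotypes are given as a description with no test.

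Cytochromes P450 are heme enzymes of the endoplasmic reticulum that add oxygen to drugs, steroids and fatty acids with electrons passed on by the reductase POR. The CYP3A and CYP2C subfamilies carry much of the drug metabolism of hepatocytes and, for CYP3A, of enterocytes. Their genes are known targets of the nuclear receptors PXR (*NR1I2*), CAR (*NR1I3*) and HNF4A.

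All cells came from MEL1, a human embryonic stem cell line, either wild type (WT) or with *ALKBH5* disrupted by indels in its first exon (A5-KO). The study lists the line as MEL1 INSGFP/W, a reporter with GFP placed in the insulin locus, so WT refers to *ALKBH5* only. ALKBH5 removes the methyl group of *N*6-methyladenosine from RNA, and the knockout lines were grown from picked colonies. hILOs were sequenced in 2 WT and 2 A5-KO libraries. PPs of each genotype were sequenced after 0, 1, 2 or 3 h with 1 μg per ml actinomycin D (Act D), which blocks transcription, in 2 libraries for each genotype and time. The knockout was made in the stem cells, so both stages had developed without normal *ALKBH5*, and Act D was the only treatment that differed among PPs. The methods call the replicates biological, but the labels do not say that they were separate cultures, so p-values measure only the spread between these libraries.

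The targeted gene followed the labels. *ALKBH5* was at 78.8 and 81.9 TPM (transcript levels divided by length and scaled to the library total) in WT hILOs and at 4.16 and 3.42 TPM in A5-KO hILOs. In PPs at 0 h it was at 149 and 172 CPM (reads scaled to the library total) in WT and at 19.1 and 18.8 CPM in A5-KO. Of the hepatocyte, intestinal, pancreatic progenitor and endocrine markers listed, none was at 0 in hILOs, and all 6 progenitor markers were read in every PP library at 0 h. PP libraries held 30516384 to 35206514 reads, in which 3 reads correspond to 0.0852 to 0.0983 CPM, whereas TPM keeps no trace of depth and the depth behind hILO values is unknown. Such limits and the intervals given for reads cover counting error only.

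The CYP3A genes lie on the minus strand of chromosome 7 of GRCh38, *CYP3A5* at 99648194 to 99679996, *CYP3A7* at 99705036 to 99735196 and *CYP3A4* at 99756960 to 99784248, each with 13 exons in its canonical transcript. The CYP2C genes lie on chromosome 10 and have 9 exons each. *CYP2C18* (94683729 to 94736190) and *CYP2C19* (94762681 to 94855547) are on the plus strand, and *CYP2C8* (95036772 to 95069497) is on the minus strand.

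Short promoter stretches show how alike the members are at elements of a kind that known regulators bind, matched exactly in some genes and not in others. They were read from the RefSeq promoter table of GRCh38.p14, which holds 5 of the 6 genes. The CYP3A stretches are set out 5′ to 3′ on the strand of the gene. Capitals mark the place of a pair of motifs, TGAACT and AGGTCA, with 6 bases between them, the kind of element that PXR is known to bind in *CYP3A4*.
CYP3A4 (chr7:99784321-99784368, minus): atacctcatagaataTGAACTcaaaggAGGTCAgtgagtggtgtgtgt
CYP3A5 (chr7:99680077-99680124, minus): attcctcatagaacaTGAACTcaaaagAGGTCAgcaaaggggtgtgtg
CYP3A7 (chr7:99735332-99735379, minus): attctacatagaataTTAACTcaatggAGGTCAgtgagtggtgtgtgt
Counted from 1 at the first base of the element in *CYP3A4*, *CYP3A5* carries G11A, between the motifs, and *CYP3A7* carries G2T in the first motif and A10T between them. On either strand, TGAACT and AGGTCA with 6 bases between them were found in 3 of 27305 RefSeq promoters of the same length (0.011%), 2 of which were those of *CYP3A4* and *CYP3A5*.

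Among the CYP2C promoters, capitals mark CAAAGTCCA, a form of the element that HNF4A binds, or the stretch most like it.
CYP2C8 (chr10:95069527-95069565, minus): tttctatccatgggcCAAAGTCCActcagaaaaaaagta
CYP2C19 (chr10:94762543-94762581, plus): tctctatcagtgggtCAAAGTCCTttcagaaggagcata
The stretch lay 53 to 45 bases before the start of *CYP2C8* and 123 to 115 bases before that of *CYP2C19*, where it carries A9T, counted from 1 at its first base. CAAAGTCCA was found on either strand in 98 of the 27305 promoters (0.359%). TATAAA, the core of a TATA box, was found on either strand in the promoters of *CYP3A4*, *CYP3A7*, *CYP2C8* and *CYP2C19* but not in that of *CYP3A5*, and in 12.0% of all. A match describes letters, not binding, and none of these elements was measured here.

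The paralogs are close enough in sequence that reads can be hard to place. Coding sequences were 94.4% identical between *CYP3A4* and *CYP3A7*, 89.3% between *CYP3A4* and *CYP3A5*, 87.6% between *CYP2C18* and *CYP2C19*, and 85.1% between *CYP2C8* and *CYP2C19*. At 150 bases, the read length of the study, no stretch of a canonical transcript was found unchanged in another of these paralogs. At 50 bases, 8.62% of the stretches of *CYP3A7* occurred in *CYP3A4*, 6.41% of those of *CYP3A4* in *CYP3A7*, and 2.61% of those of *CYP2C8* in *CYP2C19*. Annotated readthrough genes, whose transcripts join exons of neighbours, share far more. *CYP3A7-CYP3A51P* holds 70.3% of the 150-base stretches of *CYP3A7*, and ENSG00000276490 holds 36.2% of those of *CYP2C18* and 33.0% of those of *CYP2C19*. Values of *CYP3A7*, *CYP2C18* and *CYP2C19* are therefore uncertain to the extent that the quantification divided reads with these genes.

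In hILOs, 4 of the 6 genes had both A5-KO libraries above the WT ones, 1 had both below and 1 overlapped. The selection used this contrast, so nothing is read from these counts. Beside them, 24.3% of the 17300 genes averaging 1 TPM or more were higher in both A5-KO libraries and 37.1% were lower in both. The median log2 difference over the 6 genes, A5-KO minus WT of log2(TPM + 1), was 0.88, and that over the 17300 genes was -0.06. In whole cultures such as these, more cells of a type and more RNA per cell cannot be told apart.

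*CYP3A4*, the main drug-metabolizing P450 of adult liver and gut, was at 39.3 and 36.8 TPM in WT hILOs against 114 and 109 TPM in A5-KO hILOs. The A5-KO mean was thus 2.93 times that of WT, with a difference of 1.53 on the log2(TPM + 1) scale, the largest of the 6. *CYP3A5*, which accepts many of the same substrates, was at 59.6 and 36.7 TPM in WT against 66.8 and 55.4 TPM in A5-KO. Here the genotypes overlapped, the WT libraries lay further apart than the means of the genotypes, and the log2 difference was 0.37. *CYP3A7*, the form typical of fetal liver, was at 2.42 and 2.11 TPM in WT against 1.12 and 1.87 TPM in A5-KO. It was the only one of the 6 genes that was lower in both A5-KO libraries, with a log2 difference of -0.40 at a level near 2 TPM.

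The makeup of the CYP3A transcripts is described by shares. *CYP3A4* made up 38.8% and 48.7% of the summed TPM of the 3 CYP3A genes in WT and 62.6% and 65.6% in A5-KO. The share of *CYP3A5* was 58.9% and 48.5% in WT and 36.8% and 33.2% in A5-KO. The sum itself was 101 and 75.5 TPM in WT against 182 and 167 TPM in A5-KO. The readthrough gene *CYP3A7-CYP3A51P*, at 1.95 and 3.03 TPM in WT against 3.1 and 2.23 TPM in A5-KO, overlapped between the genotypes. Its libraries overlapped those of *CYP3A7*, with which it shares most of its sequence, in WT, but lay above them in A5-KO.

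*CYP2C8*, which oxidizes paclitaxel and arachidonic acid, was at 28.5 and 24.4 TPM in WT hILOs against 54.4 and 48.2 TPM in A5-KO hILOs (log2 difference 0.93). *CYP2C19*, which metabolizes proton pump inhibitors and activates clopidogrel, was at 28.3 and 29.2 TPM in WT against 52.7 and 51.7 TPM in A5-KO (log2 difference 0.84). *CYP2C18*, whose mRNA is found in many epithelia, was at 4.86 and 4.89 TPM in WT against 10.4 and 11.3 TPM in A5-KO (log2 difference 1.01). All 3 CYP2C genes were thus higher in both A5-KO libraries, by 1.82- to 2.22-fold between the means.

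Within CYP2C, the genes took similar shares of their summed level in both genotypes. *CYP2C8* made up 46.2% and 41.7% of the summed TPM of the 3 CYP2C genes in WT and 46.3% and 43.4% in A5-KO, and *CYP2C18* made up 7.88% and 8.37% in WT and 8.84% and 10.1% in A5-KO. The share of *CYP2C19* also overlapped between the genotypes, whereas that of *CYP2C18* was higher in both A5-KO libraries. The readthrough gene ENSG00000276490 lay higher in both A5-KO libraries too, at 27.8 and 28.9 TPM in WT against 50.3 and 47.9 TPM in A5-KO, a level close to that of *CYP2C19*. How its reads were divided from those of *CYP2C18* and *CYP2C19* was not tested.

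Per length, as TPM gives it, the order of levels in WT hILOs was *CYP3A5* (48.1 ± 16.2 TPM, mean ± s.d., *n* = 2 libraries here and below), *CYP3A4* (38.0 ± 1.78), *CYP2C19* (28.8 ± 0.60), *CYP2C8* (26.5 ± 2.91), *CYP2C18* (4.88 ± 0.022) and *CYP3A7* (2.26 ± 0.22). The libraries of *CYP3A5* and *CYP3A4* overlapped, as did those of *CYP2C19* and *CYP2C8*. In A5-KO hILOs *CYP3A4* came first at 112 ± 2.99 TPM, above *CYP3A5* at 61.1 ± 8.07 TPM. *CYP2C19* (52.2 ± 0.76 TPM) and *CYP2C8* (51.3 ± 4.41 TPM) again overlapped, followed by *CYP2C18* (10.8 ± 0.61 TPM) and *CYP3A7* (1.49 ± 0.53 TPM).

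**Figure D1:**
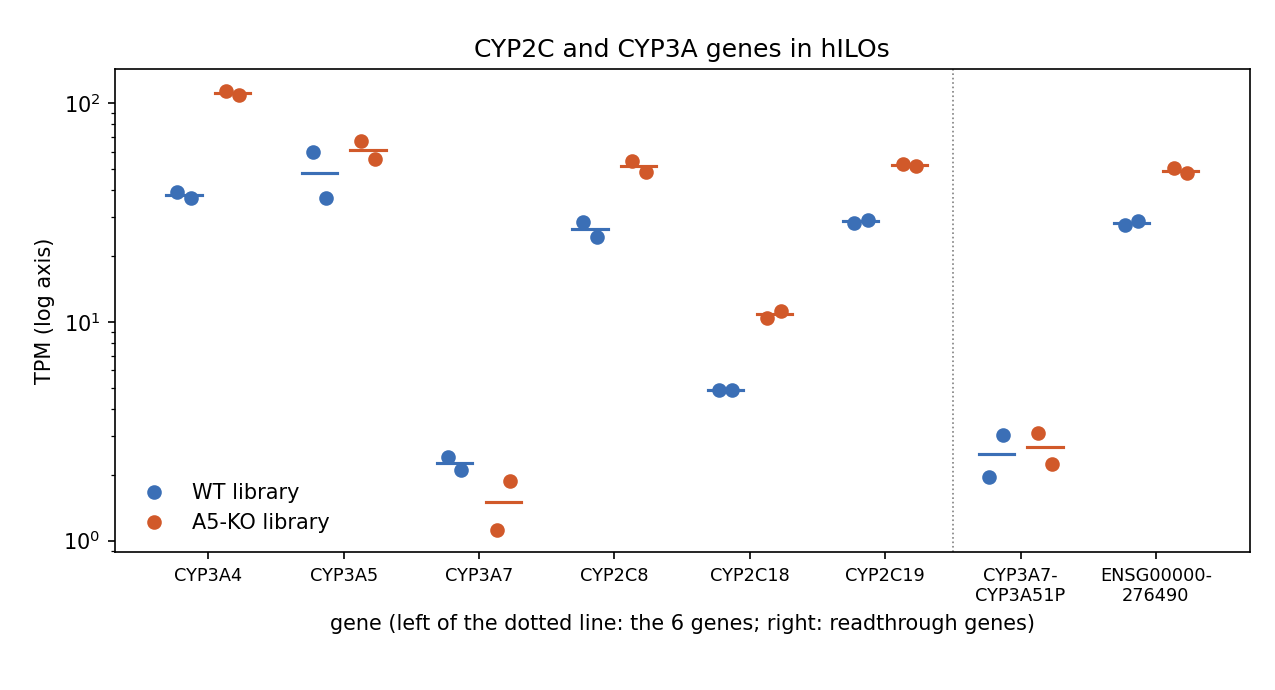
TPM on a log axis in each hILO library of WT (blue) and A5-KO (orange); bars are means of 2 libraries. *CYP3A4* and the 3 CYP2C genes lie higher in both A5-KO libraries, *CYP3A7* lies lower in both, and *CYP3A5* overlaps.

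Genes of the same pathway outside the selected ones were tested. Their lists, and the markers below, were chosen with earlier results of these data known. Counts of their calls at either stage therefore describe these lists and give no independent support. The 9 lists were tested with limma on log2(TPM + 1), and calls needed an adjusted *p* (Benjamini-Hochberg) under 0.05 with a change of more than 1.5-fold. Of the 55 genes tested among 92 listed, 9 were called higher in A5-KO hILOs and 0 lower, whereas 2.7% of all tested genes were called higher and 4.09% lower. The median log2 difference of the 55 genes was 0.20, beside -0.06 for all genes. These calls depended on every library: leaving out WT replicate 1 gave 2 calls, WT replicate 2 gave 1, A5-KO replicate 1 gave 2 and A5-KO replicate 2 gave 2. Without the filter on low values 2 genes were called, and none was called lower in any of these fits. *CYP3A43*, of the CYP3A locus, was listed at 0 in all 4 hILO libraries.

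Among regulators 1 of 19 tested genes was called, the glucocorticoid receptor gene *NR3C1*, at 28.4 and 28.6 TPM in WT against 50.3 and 58.6 TPM in A5-KO (log2 difference 0.91, standard error 0.09, limma adjusted *p* = 0.013). *NR1I2* (PXR) was at 0.80 and 4.21 TPM in WT against 5.33 and 6.06 TPM in A5-KO (limma adjusted *p* = 0.252). *NR1I3* (CAR) was at 0.99 and 11.6 TPM in WT against 1.98 and 1.14 TPM in A5-KO (limma adjusted *p* = 0.527). For both receptors the WT libraries differed several-fold from each other. *HNF4A* overlapped, at 60.6 and 72.5 TPM in WT against 80.3 and 72.4 TPM in A5-KO (limma adjusted *p* = 0.302).

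None of the 7 tested drug-metabolism P450 genes outside the CYP2C and CYP3A loci was called, although 6 had a log2 difference above 0. *CYP1A1*, which oxidizes aromatic hydrocarbons, was at 146 and 137 TPM in WT against 201 and 193 TPM in A5-KO, with a log2 difference of 0.48 (limma adjusted *p* = 0.014) that stayed under the fold limit. *CYP2B6*, another target of CAR and PXR, was at 25.4 and 24.7 TPM in WT against 32.2 and 32.8 TPM in A5-KO, likewise under that limit (log2 difference 0.36, limma adjusted *p* = 0.039). None of the 4 electron donor genes was called. *POR* was at 36.8 and 8.23 TPM in WT against 161 and 46.1 TPM in A5-KO, a spread of over 3-fold within each genotype (limma adjusted *p* = 0.199).

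Enzymes and transporters acting downstream gave 5 calls, all higher. The conjugating enzyme genes called were 3 of 11 tested. *UGT1A1*, which conjugates bilirubin, was at 3.22 and 4.38 TPM in WT against 11.2 and 9.20 TPM in A5-KO (log2 difference 1.23, limma adjusted *p* = 0.030), and *UGT2B15* and *EPHX1* had log2 differences of 1.07 and 0.77. The transporters called were 2 of 4 tested. *ABCB1*, the P-glycoprotein drug pump, was at 40.1 and 39.2 TPM in WT against 89.7 and 84.9 TPM in A5-KO (log2 difference 1.12, limma adjusted *p* = 0.0036). *ABCC2*, which exports conjugates into bile, had a log2 difference of 0.98 (limma adjusted *p* = 0.0053).

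Other P450 families gave 3 calls. *CYP27A1* and *CYP39A1*, which hydroxylate sterols on the way to bile acids, were called among 5 tested sterol and bile acid genes, with log2 differences of 0.73 and 0.86 (limma adjusted *p* = 0.0094 and 0.043). In the same list *CYP17A1*, a steroid hormone enzyme, was at 206 and 204 TPM in WT against 152 and 146 TPM in A5-KO, a log2 difference of -0.45 under the fold limit. *CYP4F12*, a fatty acid hydroxylase, was called among 3 tested (log2 difference 0.98, limma adjusted *p* = 0.024). The only retinoic acid hydroxylase tested, *CYP26B1*, was not called.

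Markers of hepatocytes and enterocytes, which both express CYP3A and CYP2C genes, differed alongside. Of 10 hepatocyte markers 4 were called higher in A5-KO hILOs (*ALB*, *TTR*, *TF* and *HPX*) and 2 lower (*FGB* and *AHSG*). The median log2 difference of the 10 was 0.17. Their summed level was 19756 to 20109 TPM in WT and 32158 to 32444 TPM in A5-KO, a gap that came mostly from *TTR*, without which it was 12229 to 12559 and 13409 to 13770 TPM. Of 9 intestinal markers tested, *SI* was called higher and *APOA4* lower, but 7 had a log2 difference above 0 and the median was 0.43. *FABP2*, *ALPI*, *VIL1*, *LGALS4* and *CDH17* were higher at a limma adjusted *p* under 0.05, with log2 differences of 0.35 to 0.53 under the fold limit. The summed level of the 10 listed was 6166 to 6198 TPM in WT and 5351 to 5353 TPM in A5-KO, and without *APOA4* the order turned, at 2474 to 2528 and 2935 to 3002 TPM. Of 8 endocrine markers, *INS*, *GCG*, *SST* and *PPY* were called lower and *NEUROD1* higher, with sums of 34583 to 36892 TPM in WT and 26517 to 27723 TPM in A5-KO. Of 5 progenitor markers tested 0 were called. The part of these cell types in the P450 differences was not tested.

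In PPs, an earlier stage that gives rise to the hILO stage, the P450 genes were low. At 0 h, 3 of the 6 were higher in both A5-KO libraries and 3 overlapped, which is again a description. Of the 13911 genes averaging 1 CPM or more, 29.0% were higher in both A5-KO libraries and 20.8% were lower in both. The median log2 difference over the 6 genes was 0.20 on the log2(CPM + 1) scale, beside 0.03 for all 13911. It came to 0.45 when 0.1 was added in place of 1.

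*CYP3A5* was the highest, at 13.1 and 12.5 CPM in WT PPs against 13.5 and 11.9 CPM in A5-KO PPs, with overlapping genotypes. *CYP2C8* was at 2.47 and 1.86 CPM in WT against 3.15 and 2.96 CPM in A5-KO (log2 difference 0.36). *CYP2C18* was at 1.06 and 0.46 CPM in WT against 1.36 and 1.26 CPM in A5-KO, and *CYP2C19* at 1.12 and 0.84 CPM in WT against 1.73 and 1.29 CPM in A5-KO. The 3 CYP2C genes were thus higher in both A5-KO libraries, at levels close to the limit of 1 CPM, and for *CYP2C18* the WT libraries lay further apart than those of A5-KO.

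*CYP3A4*, the gene that differed most in hILOs, was barely read in PPs at 0 h. Both WT libraries together held 8 of its reads and both A5-KO libraries 10, which is 0.119 CPM (95% exact Poisson interval 0.0515 to 0.235) and 0.150 CPM (0.0721 to 0.277). These intervals overlapped, so no difference of *CYP3A4* between the genotypes was seen. How large a difference this depth could show was not worked out. *CYP3A7* had 2 reads in WT and 5 in A5-KO. Both readthrough genes were at 0 in all 16 PP libraries, which the hILO values of the same genes do not share, and the read counter behind the CPM is not given in the sources used here.

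After division by exon length and rescaling as in TPM, the order in WT PPs at 0 h was *CYP3A5* (4.31 and 4.01 in the libraries), *CYP2C8* (3.17 and 2.33), *CYP2C18* (1.48 and 0.63), *CYP2C19* (0.58 and 0.42), *CYP3A4* (0.139 and 0.0881) and *CYP3A7* (0 and 0.0553). The lengths counted all annotated exons of a gene, such as 9815 bases for *CYP3A5* and 6263 for *CYP2C19*. With these lengths no neighbours in the order overlapped. Lengths of canonical transcripts, which could change the order, were not tried. The readthrough genes share 40.3% of the exon bases of *CYP2C18*, 23.4% of those of *CYP2C19* and 42.6% of those of *CYP3A7*. How reads in these shared bases were counted in PPs is not known, so the places of these genes are uncertain. The libraries of *CYP2C18* also lay further apart than its mean and that of *CYP2C19*, and *CYP3A4* and *CYP3A7* rest on 8 and 2 reads. By the means, *CYP3A5* came first in WT cells at both stages. In WT hILO replicate 2, though, *CYP3A4* was just above it (36.8 against 36.7 TPM). Next in the means of WT hILOs, *CYP3A4* came after all 3 CYP2C genes in PPs. The stages were quantified separately, so levels are not compared across them.

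Among the pathway lists, 4 of 51 tested genes were called higher in A5-KO PPs at 0 h and 2 lower, whereas 1.57% of all tested genes were called higher and 1.13% lower. The median log2 difference of the 51 genes was 0.11, beside 0.03 for all genes. The pioneer factor gene *FOXA1* was at 21.0 and 13.9 CPM in WT against 49.4 and 40.1 CPM in A5-KO (log2 difference 1.33, limma adjusted *p* = 0.0035). The estrogen sulfotransferase gene *SULT1E1* and the glutathione transferase genes *GSTA1* and *GSTA2*, a near-identical pair whose reads may be divided between them, were the other 3 (log2 differences 1.48, 0.78 and 1.18). *ONECUT1* (HNF6), a factor of liver and of pancreatic progenitors, was called lower, at 18.7 and 17.1 CPM in WT against 7.23 and 5.33 CPM in A5-KO (log2 difference -1.39, limma adjusted *p* = 0.0019). *NR0B2*, a repressor of nuclear receptors, was also called lower (log2 difference -0.94, limma adjusted *p* = 0.0052).

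*HNF4A* was at 103 and 89.2 CPM in WT PPs against 138 and 126 CPM in A5-KO PPs, a log2 difference of 0.46 (limma adjusted *p* = 0.029) that stayed under the fold limit. Of 8 hepatocyte markers tested, *ALB*, *AFP*, *APOB*, *TTR* and *FGB* were called higher in A5-KO and 0 lower. The summed level of the 10 listed was 1092 to 1142 CPM in WT and 1899 to 1925 CPM in A5-KO, with 1 marker at 0 in each A5-KO library. Without *AFP* the sums overlapped, at 529 and 591 CPM in WT against 556 and 631 CPM in A5-KO, while the median log2 difference of the 8 was 0.93. Of 10 intestinal markers 0 were called, with sums of 718 to 728 CPM in WT and 902 to 926 CPM in A5-KO. Of 5 progenitor and 2 endocrine markers tested 0 were called, *ONECUT1* being counted with the regulators, with progenitor sums of 766 to 994 CPM in WT and 729 to 837 CPM in A5-KO. The part of these cells in the CYP2C values of PPs was not tested.

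The Act D course shows how the P450 transcripts changed, relative to all other reads, after Act D was added. How fully it blocked transcription was not tested here. The change from 1 h to 3 h compares no 0 h library and was tested with limma on log2(CPM + 0.1) within each genotype. The filter on low values and the estimate of spread, however, used all 16 PP libraries, those at 0 h included. *CYP3A5* and *CYP2C8*, 2 of the 6 genes, reached the mean of 1 CPM over the 16 libraries that the test required, and 0 of them were called in either genotype. Of all 13620 genes tested, 0.778% were called in WT and 27.9% in A5-KO. edgeR and DESeq2 on the recovered reads also called 0 of these genes, and limma gave an unadjusted *p* below 0.05 to *CYP3A5* in WT alone. Differences between the genotypes in these changes are, as above, a description.

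*CYP3A5* in WT was at 13.1 and 12.5 CPM at 0 h, 6.92 and 7.38 CPM at 1 h, 5.62 and 6.09 CPM at 2 h, and 9.10 and 10.4 CPM at 3 h. In A5-KO it was at 13.5 and 11.9, then 9.98 and 7.80, then 6.98 and 7.31, and last at 8.61 and 6.83 CPM. In WT both libraries at 3 h lay above both at 1 h, whereas in A5-KO those times overlapped. The change from 1 h to 3 h was 0.44 in WT (standard error 0.18, limma adjusted *p* = 0.507) and -0.20 in A5-KO (standard error 0.18, adjusted *p* = 0.440). The difference between the genotypes was -0.64 (standard error 0.25), and edgeR gave -0.48.

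*CYP2C8* in WT was at 2.17 and 1.63 CPM at 1 h, 2.25 and 2.14 CPM at 2 h and 2.09 and 2.24 CPM at 3 h. In A5-KO it was at 2.21 and 1.61 CPM at 1 h, 2.39 and 2.03 CPM at 2 h and 1.96 and 1.87 CPM at 3 h. The genotypes overlapped at 1 h and 2 h, and at 3 h both A5-KO libraries lay just below both WT libraries. The change from 1 h to 3 h was 0.19 in WT and 0.02 in A5-KO, and the difference was -0.18 (standard error 0.38). A difference smaller than its standard error does not show that the genotypes acted alike.

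*CYP3A4* was below the limit of the test and is described by its reads. In A5-KO PPs its reads in both libraries together went from 10 at 0 h to 22 at 1 h, 33 at 2 h and 55 at 3 h, or from 0.150 to 0.319, 0.509 and 0.823 CPM (95% exact Poisson interval at 3 h, 0.620 to 1.07). In WT PPs they numbered 8, 5, 5 and 21. The libraries of A5-KO at 3 h were at 0.852 and 0.790 CPM, whereas those of WT were at 0 and 0.664 CPM, so that all 21 WT reads at 3 h came from 1 library. These are shares of the remaining reads and not amounts per cell. With the filter on low values removed, limma gave a change from 1 h to 3 h of 1.15 in A5-KO (standard error 0.79, adjusted *p* = 0.499) and of 0.83 in WT (standard error 0.79, adjusted *p* = 1).

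*CYP2C18* and *CYP2C19* were also below that limit. *CYP2C18* ranged from 0.34 to 1.06 CPM in WT libraries and from 0.64 to 1.52 CPM in A5-KO libraries over the course, and *CYP2C19* from 0.57 to 1.64 CPM and from 0.59 to 1.73 CPM. Replicates at 3 h differed by over 1.4-fold for *CYP2C19* in A5-KO and by nearly 3-fold in WT. *CYP3A7* had 0 to 8 reads in any pair of libraries.

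**Figure D2:**
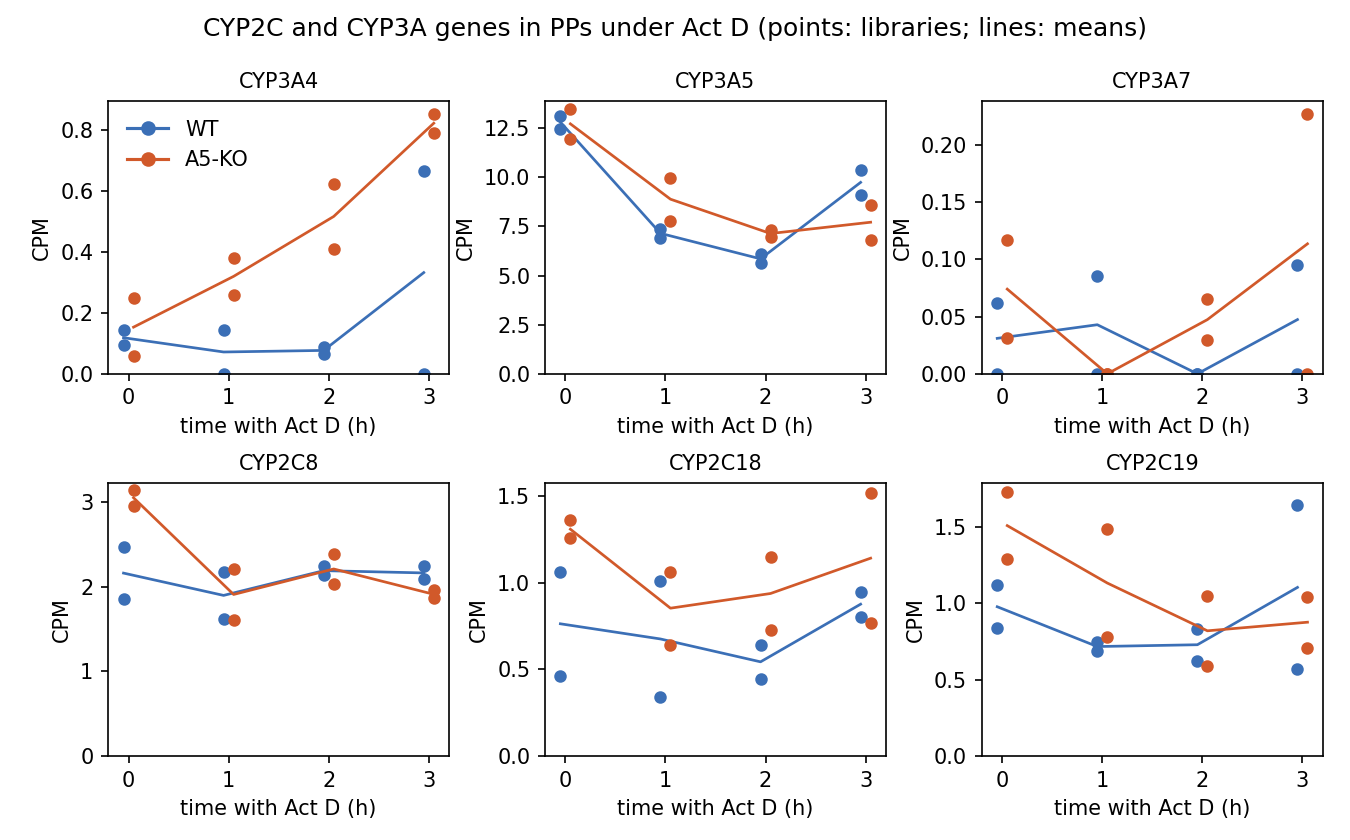
CPM of each gene in PPs against hours with Act D (WT blue, A5-KO orange; points are libraries, lines join means of 2, and each panel has its own axis from 0). *CYP3A5* is lower at 1 h than at 0 h in all libraries of both genotypes, and *CYP2C8* stays near 2 CPM after 1 h. With the reads of both libraries pooled, which differs slightly from the means drawn, *CYP3A4* in A5-KO goes from 0.150 to 0.823 CPM.

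Over the 16 PP libraries, the genes whose log2(CPM + 0.1) followed that of *CYP3A5* most closely were *VMP1*, *ABHD5* and *NABP1* (Pearson's r of 0.95 each). For *CYP2C8* they were *NSMAF* (r = 0.87), *TLR2* (r = 0.86) and *CHML* (r = 0.85), and for *CYP3A4* *NDRG2* (r = 0.87), *OCIAD2* and *ACAD8* (r = 0.85 each). For *CYP2C19* the closest was *DPM1* (r = 0.87) and for *CYP2C18* *SEMA3A* (r = 0.77). These are the highest of about 13620 values for each gene, over libraries that share the time course, and in genes with few reads they describe no more than that.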

How the data were processed

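The 20 libraries were grouped by genotype, stage and time from the labels. For hILOs, the authors deposited TPM per gene from StringTie, after fastp trimming and alignment to GRCh38 with HISAT2 (2.1.0). For PPs, the authors deposited CPM per gene with spike-ins removed. All CPM values were whole reads within 0.05 read. The annotation release was not given in the sources used here.

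The 6 genes, the 9 lists and the markers were chosen with earlier results of these data known. The values of 1 listed gene are not reported here. Genes named are the selected ones, those of the CYP3A locus, and list genes that passed the test or served as examples with a mean of at least 10 in either genotype; *NR1I2* and *NR1I3* were named after their values were seen. limma (3.58.1, R 4.3.3; eBayes with trend) was fitted over all genes with a mean of at least 1. For the 6 genes, the difference between the genotypes' Act D changes was fitted but not used as a test. edgeR (4.0.16) and DESeq2 (1.42.0) used recovered reads. An exact two-sided permutation test of 2 against 2 libraries has a smallest *p* of 0.333. Replicates differed by more than counting (chi-square per degree of freedom 4.28 to 37.8).

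On simulated data, changes of 1 on the log2 scale were recovered for 98 of 100 genes in the hILO comparison and 96 in PPs at 0 h. For the Act D change, 97 were recovered in A5-KO and 77 for the difference between the genotypes. Unchanged genes called numbered 1, 2, 22 and 12 in these steps. The simulation set 1 depth and the same spread for every gene, whereas the depth of hILOs is unknown. Recovery in the real libraries may therefore be lower. Changes were placed only in genes above the filter limit of 1, none as low as *CYP2C18*, *CYP2C19*, *CYP3A4* and *CYP3A7* in PPs. Recovery at such levels was not measured. Positions, exons and transcripts came from GENCODE annotation of GRCh38, and coding sequences were aligned with Biopython (1.88). The alternatives were the pseudocount, the filter, the scaling, the replicate block, the test, the time points and each library left out.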

Additional observations from a re-analysis of the deposited data

How the results depend on the processing

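The list calls in hILOs were the least stable result. They went from 9 to 2 without the filter on low values, to 6 with replicates as a block and to between 1 and 2 with each library left out, while the 6 calls in PPs at 0 h ranged from 6 to 9 over all alternatives, 9 of them with the block (7 higher, against 4 without it). In hILOs the block kept 5 calls, lost *UGT1A1* (limma adjusted *p* = 0.070), *UGT2B15* (0.064), *CYP39A1* (0.064) and *CYP4F12* (0.058), and gained *POR*. Over all genes, hILO calls went from 467 higher and 707 lower to 143 and 187 without the filter, to 289 and 385 with the block, and to 71 to 100 and 72 to 203 with each library left out. In PPs at 0 h, 218 and 157 became 87 and 77 without the filter, 365 and 266 with the block, and 125 to 248 and 112 to 192 with each library left out. Deviations of libraries of like number correlated between WT and A5-KO at -0.0053 in hILOs and at 0.181 in PPs at 0 h. With Act D the correlations were between -0.059 and -0.0094. Those numbers thus showed no pairing of the genotypes in hILOs or with Act D, whereas for PPs at 0 h pairing was not settled. The study says in general that a replicate's wells shared a batch of cells; across Act D times within a genotype the correlations were -0.255 to 0.158, and a block within each genotype, chosen after seeing the data, called 0 of the 6 genes. The median over the 6 P450 genes lay between 0.83 and 0.91 in hILOs and between 0.13 and 0.28 in PPs with each library left out, and at 0.45 in PPs with a pseudocount of 0.1, a scale on which low genes weigh more. In the Act D course, 1 of the 6 genes, *CYP3A5*, was called in A5-KO for 3 h against 0 h and 0 otherwise, but the selection had used the 0 h libraries and nothing is read from it. Its WT change of 0.44 turned to -0.39 for 3 h against 0 h and to -0.15 per hour as a slope over 0 to 3 h, both of which use the 0 h libraries. Changes that were not called also turned. *CYP2C8* in A5-KO came to -0.65 and -0.17 per hour in those fits. With each library left out, *CYP2C8* ranged from -0.0055 to 0.39 in WT, from -0.20 to 0.24 in A5-KO and from -0.40 to 0.044 for the difference; the cause was not tested. Depth limits *CYP3A4* and *CYP3A7* in PPs.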
